A study of Mus musculus with 8 samples.

Results

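Deoxynucleotide supply was examined through 6 genes, the 2 subunits of ribonucleotide reductase (Rrm1 and Rrm2) and 4 enzymes of the thymidylate branch (Dctd, Dut, Tyms and Dtymk). They are the rows of the count table whose Ensembl identifiers carry these symbols, 6 of the 54838 genes listed, and all 6 passed the filter on low counts that left 10911 genes to test. RNA was profiled in mouse acute myeloid leukaemia (AML) cells of C57BL/6 background that carry the RUNX1-RUNX1T1 fusion, grown in Ptprca recipient mice that the labels describe as irradiated below the lethal dose. The recipients received vehicle (4 samples) or AG636, an inhibitor of the mitochondrial enzyme DHODH, at 100 mg/kg by oral gavage b.i.d. (4 samples). The study's figure legend gives a single day of treatment. Ages were not given, all samples share the same fusion and background, and the cells were sorted by fluorescence from bone marrow and spleen without a record of which sample came from which organ. The study describes the sorted population as rich in the surface receptor cKit (in its text) or as cKit positive and CD11b negative (in its legend). Nothing in the labels ties each sample to a mouse of its own, and that legend names fewer mice per group than there are samples here. The SDs and p-values below therefore measure the spread between samples, which may in part be technical.

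Ribonucleotide reductase turns ribonucleoside diphosphates into deoxyribonucleoside diphosphates and is the only route by which cells make deoxynucleotides anew. Its large subunit, RRM1, holds the active and regulatory sites, while the small subunit, RRM2, carries the radical needed for the reaction and accumulates mainly in S phase. Thymidylate needs further steps, in which DCTD deaminates dCMP to dUMP, DUT hydrolyses dUTP to dUMP and so keeps uracil out of DNA, TYMS methylates dUMP to dTMP with a folate cofactor, and DTYMK phosphorylates dTMP to dTDP. DHODH acts further upstream, in the de novo synthesis of UMP, from which the pyrimidine substrates of the reductase derive.

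The sequences before the start sites of the reductase pair and of Tyms are shown because these genes share a role in S phase but differ in the words their promoters hold. Each run is the 150 bases immediately before a RefSeq start site on the gene's strand (GRCm38.p6), with CCAAT in capitals.
Rrm1, chr7:102441545-102441694, plus strand: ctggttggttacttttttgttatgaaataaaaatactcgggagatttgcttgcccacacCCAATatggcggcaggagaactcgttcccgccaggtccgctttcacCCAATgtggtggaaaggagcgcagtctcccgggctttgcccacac
Rrm2, chr12:24708104-24708253, plus strand: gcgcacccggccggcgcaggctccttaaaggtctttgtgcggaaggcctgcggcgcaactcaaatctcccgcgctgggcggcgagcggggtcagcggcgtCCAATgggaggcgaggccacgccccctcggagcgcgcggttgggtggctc
Tyms, chr5:30073626-30073775, minus strand: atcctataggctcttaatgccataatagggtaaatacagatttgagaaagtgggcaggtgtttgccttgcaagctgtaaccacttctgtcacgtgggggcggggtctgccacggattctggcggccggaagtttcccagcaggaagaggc

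Rrm1 holds CCAAT 91 and 45 bases before its start and Rrm2 holds it 50 bases before. Searched on both strands over 250 bases, CCAAT was found before 4 of the 6 genes (Rrm1, Rrm2, Dctd at 2 of its 3 start sites and, on the opposite strand, Dtymk), against 33.85% of 32851 RefSeq promoters. It was also found before 19 of 30 S phase genes and 14 of 15 genes of G2 and mitosis. Throughout, a listed gene was counted if any of its start sites held a word. The percentages count each RefSeq promoter separately, so they are not the same measure. Words of the E2F type (TTTCCCGC, TTTCGCGC, TTTGCCGC, TTTGGCGC) were found before 0 of the 6, against 1.86% of all promoters and 8 of the 30 S phase genes with a promoter sequence. The exact word AAGATGG, used for the YY1 motif, also matched 0 of the 6 and 4.487% of all promoters. The words TTTGAA and TTCGAA (CHR) matched 0 of the 6 and 17.15% of all promoters. They were found before 7 of the 30 S phase genes and 7 of the 15 genes of G2 and mitosis. TATAAA matched 0 of the 6 and 12.37% of all promoters. Only exact words were counted, so near matches in the runs above were not. Examples are AATATGG (YY1) and GTTCCCGC (E2F) in the Rrm1 run and TCTCCCGC (E2F) in the Rrm2 run. A missing match says only that these letters are not in this window. For Dut the window ended at a start site at 125247515, inside the annotated gene, which begins at 125247190. Sequence upstream of the Dut gene was therefore not searched for any of these words.

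Vehicle samples held 6586446 to 7162036 counts and AG636 samples 6120030 to 6610360, so that 1 count was worth 0.145 to 0.160 CPM (counts per megaread of TMM-adjusted library size). Counts come from the 3′ end of transcripts. Libraries of a group differed by more than sampling noise, and Vehicle sample 4 stood apart from the other 3 Vehicle samples, with chi-square statistics per degree of freedom of 9.20 to 13.1 against them and 3.88 to 4.55 among them. AG636 samples differed from each other by 14.2 to 25.4, and AG636 sample 3 had the most genes with a count (18049, against 16141 to 17546 in the other AG636 samples). Calls of the 6 enzymes, and counts of the lists where they moved by over 1.5 times, are therefore also given without Vehicle sample 4 or without both it and AG636 sample 3. The progenitor genes Kit and Myb of the immature myeloid list averaged 163 and 447 CPM in Vehicle, and the sort selects on the product of Kit. Cd34 of the same list averaged 8.63 CPM, and its granule genes Mpo, Elane, Prtn3 and Ctsg had at most 33 counts in any sample. Itgam, which encodes CD11b and is selected against, had at most 4. The erythroid regulators Gata1, Klf1 and Epor averaged 225, 171 and 78.6 CPM in Vehicle. Erythroid transcripts were abundant, 8 markers summing to 2550 to 6349 CPM in Vehicle and 4958 to 6478 CPM in AG636, with 1 of 8 (Hbb-bt) called higher, a call lost without Vehicle sample 2, 3 or 4. The count was 3 of 8 without AG636 sample 3, and 3 of 8 without both Vehicle sample 4 and AG636 sample 3, and the part of these transcripts in the enzyme levels was not tested. In these bulk samples fewer cells of a type and less RNA per cell cannot be told apart.

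All 6 enzymes had a lower mean level in AG636 than in Vehicle, and the fall passed the test for Tyms and Dut. The median log2 fold change of the 6 was −0.37, against −0.0056 over all genes tested. Among all 10911 genes, limma-voom called 14.0% (8.49% lower and 5.47% higher in AG636) at an adjusted p under 0.05. In 5 of the 6 genes every AG636 sample lay below every Vehicle sample, which held for 12.9% of all tested genes. The exception was Rrm2.

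**Figure D1:**
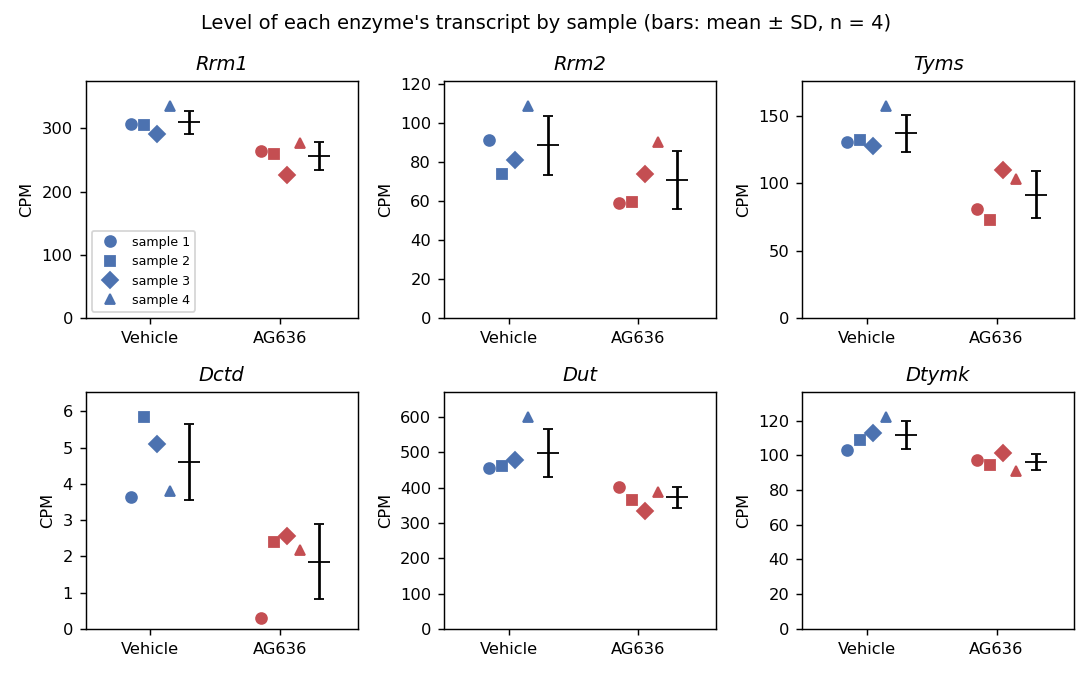
Each panel plots 1 enzyme's level in CPM (y axis, from 0) for the 4 Vehicle (blue) and 4 AG636 (red) samples, with marker shapes for sample numbers and a black bar for the mean ± SD. The groups are separate for Rrm1, Tyms, Dctd, Dut and Dtymk, while AG636 sample 4 reaches 90.3 CPM in the Rrm2 panel, inside the range of Vehicle.

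Rrm1 (ENSMUSG00000030978, chr7:102441695-102469771, plus strand) encodes the large, catalytic subunit of the reductase. Its level was 307, 305, 291 and 335 CPM in Vehicle samples 1 to 4 and 265, 259, 226 and 276 CPM in AG636 samples 1 to 4. The groups did not overlap, and the mean went from 309 ± 18.3 to 256 ± 21.6 CPM (SD, n = 4 each). The log2 fold change was −0.27 ± 0.087 (SE, 95% interval −0.46 to −0.08), and the difference did not pass limma-voom (adjusted p = 0.0602). Among 20 alternatives only DESeq2 called it (adjusted p = 0.0450, range over the alternatives 0.0450 to 0.248). A predicted gene on the same strand, Gm45399, lies within Rrm1 and had 118 counts in all against 14821.

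Rrm2 (ENSMUSG00000020649, chr12:24708241-24714146, plus strand), the small subunit that limits reductase activity through the cell cycle, was the most variable of the 5 abundant enzymes within Vehicle. Vehicle samples 1 to 4 held 91.3, 73.6, 80.8 and 108 CPM, and AG636 samples 1 to 4 held 58.9, 59.7, 73.6 and 90.3 CPM. AG636 samples 1 and 2 lay clearly below the Vehicle range, AG636 sample 3 was just under the lowest Vehicle sample, and AG636 sample 4 lay within the range. The mean of 88.5 ± 15.1 CPM in Vehicle compared with 70.6 ± 14.8 CPM in AG636, a log2 fold change of −0.33 ± 0.16 whose 95% interval ran from −0.68 to 0.016. It did not pass the test (adjusted p = 0.181) and was called in 0 of 20 alternatives (0.0657 to 0.407).

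Dctd (ENSMUSG00000031562, chr8:48099092-48153233, plus strand), the deaminase that supplies dUMP from dCMP, had only 169 counts over the 8 samples. Vehicle samples 1 to 4 held 25, 38, 33 and 25 counts, whereas AG636 samples 1 to 4 held 2, 15, 16 and 15. The exact Poisson 95% interval was 0.242 to 7.22 counts for the lowest of these and 26.9 to 52.2 for the highest, for counting error only. In CPM the mean was 4.60 ± 1.06 in Vehicle and 1.86 ± 1.04 in AG636. The log2 fold change of −1.57 ± 0.51 was the lowest of the 6 enzymes, with 0.220% of all tested genes lower still, yet it did not pass the threshold (adjusted p = 0.0628). It was called in 3 of the 19 alternatives that kept the gene, namely DESeq2, sample quality weights and the fit without AG636 sample 3 (range of log2 fold change −1.87 to −0.91, of adjusted p 0.0352 to 0.139).

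Dut (ENSMUSG00000027203, chr2:125247190-125258608, plus strand) encodes dUTPase and has a start site each for a nuclear and a mitochondrial form, which counts at the 3′ end do not separate. Vehicle samples 1 to 4 held 455, 462, 480 and 600 CPM and AG636 samples 1 to 4 held 402, 366, 335 and 387 CPM. Every AG636 sample was below every Vehicle sample, and Vehicle sample 4 stood above the other 3. Dut averaged 499 ± 68.1 CPM in Vehicle and fell to 373 ± 29.0 CPM in AG636 (SD, n = 4 each), with a log2 fold change of −0.42 ± 0.10 (adjusted p = 0.0255, limma-voom). The call was kept in 16 of 20 alternatives. It was lost with library size as the only scaling (−0.35, adjusted p = 0.0644), without Vehicle sample 3 (−0.44, 0.0650), without Vehicle sample 4 (−0.31, 0.0659), and without both Vehicle sample 4 and AG636 sample 3 (−0.25, 0.0824).

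Tyms (ENSMUSG00000025747, chr5:30058202-30073617, minus strand), which encodes thymidylate synthase, the target of 5-fluorouracil, changed most clearly. Its level was 131, 132, 128 and 157 CPM in Vehicle samples 1 to 4 and 80.7, 73.1, 110 and 103 CPM in AG636 samples 1 to 4. The groups did not overlap, and AG636 samples 1 and 2 were lower than AG636 samples 3 and 4. The mean of Tyms was 137 ± 13.5 CPM in Vehicle and 91.7 ± 17.5 CPM in AG636, and the log2 fold change was −0.59 ± 0.13 (95% interval −0.89 to −0.30, adjusted p = 0.0160). It was called in all 20 alternatives (adjusted p 0.00160 to 0.0459), and the log2 fold change ranged from −0.69 to −0.49. Its pseudogene Tyms-ps had 1 count in all.

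Dtymk (ENSMUSG00000026281, chr1:93792576-93801934, minus strand), thymidylate kinase, had the smallest difference of the 6. Vehicle samples 1 to 4 held 103, 109, 113 and 122 CPM and AG636 samples 1 to 4 held 97.5, 94.2, 101 and 91.1 CPM. The groups were separate, but the gap between the lowest Vehicle and the highest AG636 sample was narrow. Vehicle averaged 112 ± 8.03 CPM and AG636 96.1 ± 4.48 CPM, and the log2 fold change of −0.22 ± 0.083 did not pass the test (adjusted p = 0.108) and was called in 0 of 20 alternatives (0.0934 to 0.30).

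Across the 8 samples the enzymes did not all move together within groups. The closest pairs were Rrm1 and Dut (Pearson's r of log2 CPM 0.93, and 0.78 for deviations from the group means) and Rrm2 and Tyms (0.84 and 0.80). Rrm1 and Tyms gave 0.67 over all samples but −0.08 within groups. These 8 points share the treatment groups and library composition, and the values are descriptions. By the same measure, among 5261 genes with a mean log2 CPM of at least 5, the nearest gene was Hars for Rrm1 (0.996), Stip1 for Rrm2 (0.970), Uba6 for Tyms (0.985), Cdc37 for Dctd (0.981), Psmd6 for Dut (0.988) and Acp1 for Dtymk (0.970). The second nearest were Trp53bp1, Psmd13, Bop1, Sh3bp1, Mrpl37 and Cdc16, in the same order. All were picked as the highest values among the 5261 genes. The Dctd profile holds AG636 sample 1 at −0.70 log2 CPM, from 2 counts, against 1.31 to 1.52 in the other AG636 samples.

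The levels were then set against genes of replication and division, since Rrm2 and Tyms transcripts are known to follow the cell cycle. Of 37 S phase genes (helicase, clamp, polymerase and origin licensing components), 11 were called lower in AG636 and 0 higher, 35 had a log2 fold change below 0, and the median was −0.31. The licensing factor Cdt1 fell from 166 ± 8.05 to 102 ± 11.1 CPM (log2 fold change −0.71 ± 0.092, adjusted p = 0.0021). The helicase subunits Mcm5 (−0.66, adjusted p = 0.0047) and Mcm4 (−0.50, 0.0057) and the polymerase subunit Pold3 (−0.54, 0.0067) fell as well, while the sliding clamp Pcna at −0.35 did not pass (adjusted p = 0.110). The count of 11 became 7 without Vehicle sample 3 or without AG636 sample 1 and 18 without AG636 sample 4, which had the highest S phase level of its group. It was 8 without Vehicle sample 4 and 9 without both Vehicle sample 4 and AG636 sample 3.

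Of 18 genes of G2 and mitosis, 7 were called higher and 0 lower, and all 18 had a log2 fold change above 0 (median 0.31). Cenpf, a kinetochore protein, rose from 243 ± 23.6 to 345 ± 14.7 CPM (0.51 ± 0.088, adjusted p = 0.0054). Cyclin B2 (Ccnb2, 0.58, adjusted p = 0.0198), the anaphase activator Cdc20 (0.55, 0.0181) and the mitotic kinase Aurka (0.58, 0.0283) rose too. Elovl1 overlaps Cdc20 on the opposite strand with 5350 counts against 10463. Vehicle sample 4 carried a mitotic level like that of AG636, 0.27 log2 units above the mean of Vehicle, and Aurka there was 95.8 CPM against 59.4 to 61.9 in the other 3 Vehicle samples. The count of 7 depended on the libraries kept. It was 1 without Vehicle sample 1, 2 or 3 and 2 without AG636 sample 1. It was 11 without Vehicle sample 4 and 13 without both Vehicle sample 4 and AG636 sample 3. The median of the list stayed at 0.26 to 0.42 in these fits. Calls over all genes were also fewer without Vehicle sample 1, 2 or 3.

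**Figure D2:**
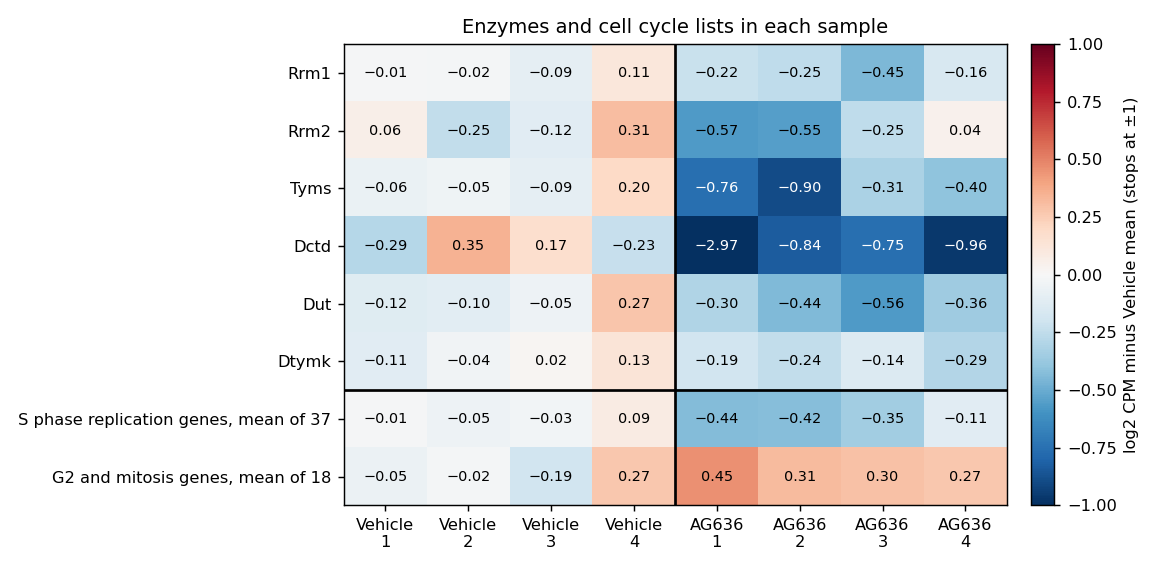
Rows are the 6 enzymes and the mean of 37 S phase and of 18 G2 and mitosis genes, columns are the 8 samples, and each cell gives log2 CPM minus the mean of the 4 Vehicle samples, with blue below and red above it. Tyms runs from −0.90 to −0.31 in AG636, the S phase mean from −0.44 to −0.11, and the G2 and mitosis mean from 0.27 to 0.45.

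Relative to the mean of the 37 S phase genes in the same sample, 0 of the 6 enzymes differed between the groups after adjustment (two-sided exact permutation test over 70 relabellings, smallest possible p 0.0286). At least 4 of the 6 tests would have to reach that smallest p for any to pass, so the design could hardly give a pass. Tyms lay 0.42 ± 0.08 log2 units above the S phase mean in Vehicle and 0.16 ± 0.21 above it in AG636, a difference of −0.26 with 3 of 4 AG636 samples below the lowest Vehicle sample (exact p = 0.114, adjusted p = 0.343). Dctd gave a difference of −1.05 with 4 of 4 samples below (exact p = 0.0286, adjusted p = 0.171), and the counts behind it are those given above. For Rrm1 (0.06), Rrm2 (−0.0021), Dut (−0.09) and Dtymk (0.11) the differences were smaller than the SD of the AG636 samples, and their exact p-values ran from 0.343 to 1. With 4 samples a group these p-values do not show that the enzymes and the S phase genes changed alike.

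Ratios between partners were compared in 6 pairs, and 0 passed after adjustment over the 6, where again at least 4 would have had to reach the smallest possible p. Rrm2b, the p53-inducible small subunit that can replace Rrm2 outside S phase, was at 5.96 ± 0.96 CPM in Vehicle and 8.78 ± 0.49 CPM in AG636, without overlap (log2 fold change 0.57 ± 0.18, adjusted p = 0.0593). Its counts were low, 33 to 59 a sample, and it was called in 3 of 20 alternatives. The log2 ratio of Rrm2b to Rrm2 was −4.16, −3.59, −3.68 and −3.86 in Vehicle and −2.69, −2.75, −2.93 and −3.41 in AG636. All 4 AG636 samples lay above Vehicle, by 0.88 on average (exact p = 0.0286, adjusted p = 0.0857). Within the reductase pair, the log2 ratio of Rrm2 to Rrm1 was −1.81 ± 0.18 in Vehicle and −1.87 ± 0.30 in AG636 (exact p = 0.83).

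Thymidylate can also be made by salvage, through thymidine kinase 1 (Tk1). The log2 ratio of Tyms to Tk1 was −0.42, −0.46, −0.37 and −0.23 in Vehicle and −0.72, −1.15, −0.49 and −0.87 in AG636. All 4 AG636 samples lay below Vehicle, by 0.44 on average (exact p = 0.0286, adjusted p = 0.0857). Dtymk relative to Tyms was 0.38 higher (exact p = 0.0571, adjusted p = 0.114), with AG636 samples 1 and 2 the highest. Dut relative to Tyms differed by 0.18 (exact p = 0.343).

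**Figure D3:**
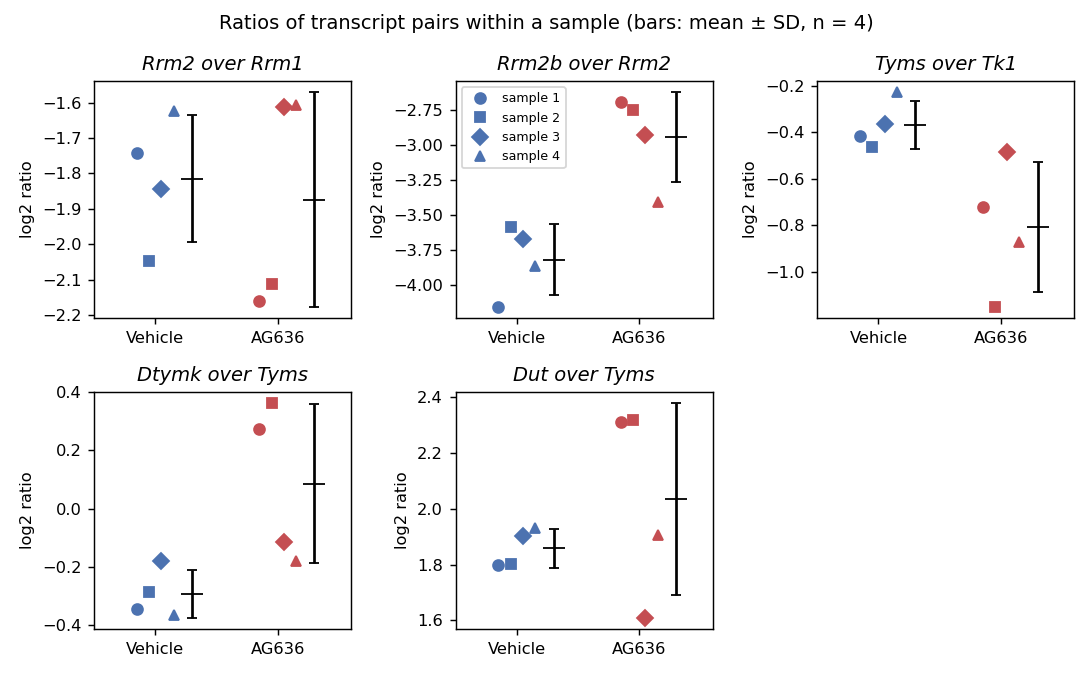
Panels plot the log2 ratio of the CPM of 2 transcripts in each sample for 5 of the pairs (y axis, a different range in each panel) for Vehicle (blue) and AG636 (red), with marker shapes for sample numbers and black bars for the mean ± SD. The groups are separate in 2 panels, Rrm2b over Rrm2 (−4.16 to −3.59 against −3.41 to −2.69) and Tyms over Tk1 (−0.46 to −0.23 against −1.15 to −0.49).

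Among the neighbours of the pathway are the folate enzymes that serve TYMS. Of 6 genes of the thymidylate cycle and its folate partners, 4 were called lower and 0 higher (median −0.51). Shmt1, the cytosolic serine hydroxymethyltransferase that acts beside TYMS, fell from 41.0 ± 4.51 to 16.9 ± 7.61 CPM (log2 fold change −1.38 ± 0.26, adjusted p = 0.0083) and was called in all 20 alternatives, although Smcr8 overlaps it on the opposite strand with 532 counts against 1524. Shmt2 (−0.53, adjusted p = 0.0262) and Mthfd1 (−0.49, 0.0456) passed the test as well, Mthfd1 in only 6 of the 20 alternatives. The 4 calls became 1 with library size alone, without Vehicle sample 3 or 4 and without AG636 sample 1, and 2 without AG636 sample 2.

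The reductase depends on thioredoxin or glutaredoxin for electrons. Of 4 such partners, Rrm2b included, 1 was called lower and 0 higher (median 0.18). Thioredoxin reductase (Txnrd1) fell from 85.2 ± 2.08 to 63.8 ± 9.97 CPM (−0.43, adjusted p = 0.0307), a call lost without any 1 of the Vehicle samples, without AG636 sample 1 and with library size alone. Glrx (0.82, adjusted p = 0.0619 in the main comparison) or Rrm2b was called higher in some alternatives, so that library size alone gave 0 lower and 2 higher, the filter of 10 counts in every sample 1 lower and 2 higher, and DESeq2, limma-trend, sample quality weights, the replicate block and the fit without AG636 sample 4 each 1 and 1. In deoxynucleoside salvage 0 of 5 tested genes were called, with a median of −0.11. Tk1, at 176 ± 8.67 CPM in Vehicle and 160 ± 23.0 CPM in AG636, overlapped between groups (−0.15 ± 0.11, adjusted p = 0.359). Cytidine deaminase (Cda) had at most 2 counts in a sample.

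Kinases that complete the triphosphates gave 3 of 6 called lower and 0 higher (median −0.39). Nme1, a nucleoside diphosphate kinase, fell from 259 ± 23.3 to 164 ± 31.1 CPM (−0.67 ± 0.13, adjusted p = 0.0095), and the UMP/CMP kinase Cmpk1 (−0.45, 0.0203) fell as well. Without Vehicle sample 3 the 3 calls became 1, and they became 2 without Vehicle sample 4 and without both Vehicle sample 4 and AG636 sample 3. Nme2 had at most 1 count in a sample, so that it could not be described.

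Enzymes that destroy or clean deoxynucleotides gave 2 of 9 called lower and 0 higher (median −0.30). Dctpp1, which hydrolyses dCTP and its modified forms, fell from 145 ± 9.97 to 82.1 ± 13.7 CPM (−0.83 ± 0.12, adjusted p = 0.0026), and the inosine triphosphatase Itpa fell by 0.36 on the log2 scale (adjusted p = 0.0349). The Itpa call was the one lost in 8 of the 20 alternatives, among them the fits without Vehicle sample 1, 3 or 4 and without AG636 sample 1 or 2. The fit without both Vehicle sample 4 and AG636 sample 3 lost it as well. Samhd1, the dNTP triphosphohydrolase, was at 107 ± 8.38 CPM in Vehicle and 124 ± 15.3 CPM in AG636 and overlapped between the groups (0.21, adjusted p = 0.209).

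Of 4 enzymes that remove uracil from DNA, 2 were called lower and 0 higher (median −0.33). The uracil glycosylase Ung fell from 165 ± 27.3 to 89.4 ± 13.7 CPM (−0.88 ± 0.14, adjusted p = 0.0047). The thymine DNA glycosylase Tdg stood at the threshold (−0.42, adjusted p = 0.05) and was called in 3 of 20 alternatives. The 2 calls of this list became 1 without Vehicle sample 4 and without both Vehicle sample 4 and AG636 sample 3. Upstream, 3 of 5 genes of de novo pyrimidine synthesis were called lower and 0 higher (median −0.60). Umps, which makes UMP from orotate, fell from 59.5 ± 4.52 to 36.9 ± 4.30 CPM (−0.69, adjusted p = 0.0041), CTP synthase (Ctps) from 73.9 ± 4.64 to 47.2 ± 4.85 CPM (−0.65, 0.0039) and the first enzyme, Cad, from 94.7 ± 5.64 to 63.3 ± 13.2 CPM (−0.60, 0.0166). Dhodh itself, the target of AG636, was at 33.0 ± 4.0 and 29.8 ± 2.39 CPM (−0.14, adjusted p = 0.442).

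Regulators were mixed. Of 7 genes of the replication checkpoint and RRM2 turnover, 1 was called higher and 1 lower (median −0.06). Fzr1, the activator of the ubiquitin ligase that degrades RRM2 in G1, rose from 96.5 ± 11.6 to 139 ± 18.0 CPM (0.53, adjusted p = 0.0149), a call lost without Vehicle sample 1 or 3, and Mfsd12 overlaps it on the opposite strand with 1578 counts against 6140. Atrip, the partner of the checkpoint kinase ATR, fell by 0.43 on the log2 scale (adjusted p = 0.0351) and was called in 10 of 20 alternatives. Without Vehicle sample 4, with or without AG636 sample 3, the list gave 0 lower and 2 higher, and it gave 0 and 0 without Vehicle sample 1 or 3. Of 13 genes of the E2F and Rb families, 3 were called lower and 2 higher (median −0.19). The E2F partner Tfdp1 fell from 114 ± 7.94 to 82.0 ± 3.08 CPM (−0.47, adjusted p = 0.0058) and E2f6, a repressor, fell by 0.72 on the log2 scale (adjusted p = 0.0141), whereas the pocket proteins Rb1 (0.54, 0.0103) and Rbl2 (0.43, 0.0123) rose, both of them overlapped by genes on the opposite strand. Without Vehicle sample 4 and AG636 sample 3 the 3 lower calls became 1. E2f1, the activator named with Rrm2 and Tyms in textbooks, was at −0.25 (adjusted p = 0.457).

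**Figure D4:**
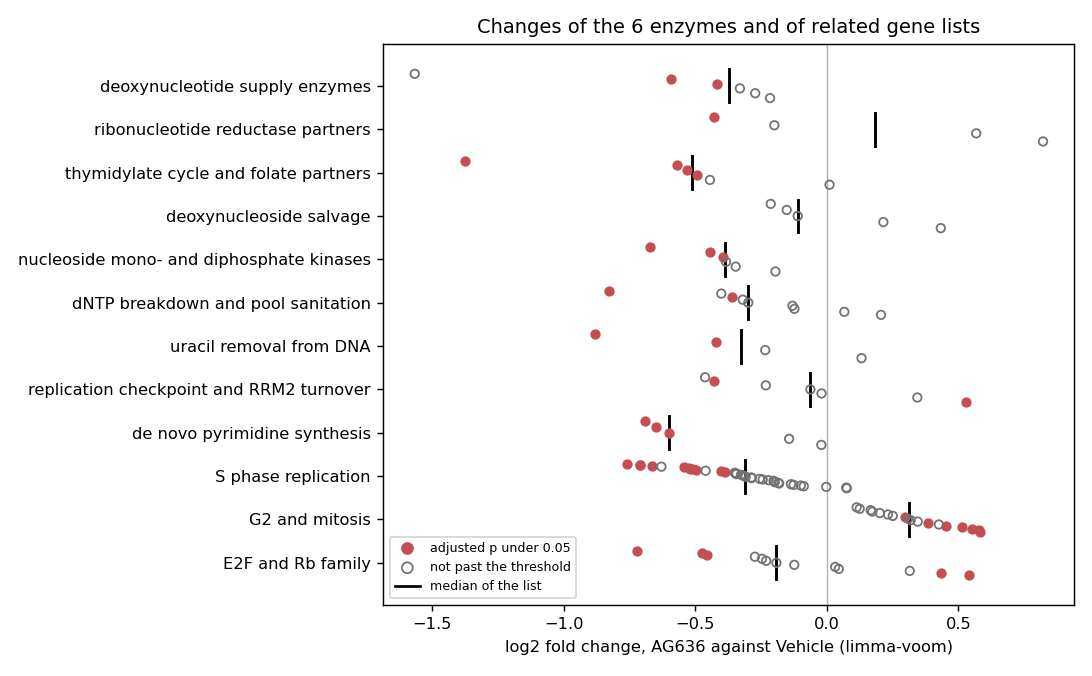
Each point is the log2 fold change of 1 gene (x axis, AG636 against Vehicle by limma-voom) in the list named on the y axis, filled red where the adjusted p was under 0.05, and black ticks mark list medians. The 6 supply enzymes have a median of −0.37 with 2 red points, the 37 S phase genes a median of −0.31 with 11, and the 18 G2 and mitosis genes a median of 0.31 with 7.

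Transcripts of other blood cells were followed beside these results. The B cell list summed to 5.38 to 13.4 CPM in Vehicle and 10.7 to 22.5 CPM in AG636. Of its 5 tested genes, 1 (Cd79a, 0.609 and 2.14 CPM) was called higher. That count was 0 without Vehicle sample 1, 2 or 3. It was 2 without Vehicle sample 4 and 3 without both Vehicle sample 4 and AG636 sample 3. Megakaryocyte markers summed to 11.9 to 18.1 CPM and 13.1 to 60.6 CPM with 0 of 2 called and Gp1bb at 0 in every library. Pf4 averaged 2.52 CPM in Vehicle and 16 CPM in AG636 (log2 fold change 2.89, adjusted p = 0.0943). It was called higher in 6 of the 19 alternatives that kept it (edgeR, DESeq2, limma-trend, sample quality weights, the replicate block and the fit without AG636 sample 2), and Gp9 was called higher without AG636 sample 3 and without both Vehicle sample 4 and AG636 sample 3. Mature myeloid markers summed to 41.2 to 96.8 CPM and 17.0 to 185 CPM with 0 of 5 called, T and NK markers to 2.59 to 9.47 CPM and 4.79 to 19.3 CPM with 0 of 1, macrophage markers to 2.15 to 5.42 CPM and 3.19 to 10.6 CPM with 0 of 1, and the immature myeloid list to 564 to 701 CPM and 639 to 949 CPM with 0 of 5. Without both Vehicle sample 4 and AG636 sample 3, 1 gene was called lower in the immature myeloid list and 1 in the T and NK list. Without AG636 sample 4, 1 gene of the immature myeloid list was called higher. Whether any of these transcripts had a part in the enzyme levels was not tested.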

How the data were processed

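RNA of sorted RUNX1-RUNX1T1 AML cells was read with a QuantSeq 3′ mRNA kit. The deposited values are raw counts per gene. Before counting, the authors discarded low-quality reads, trimmed the rest with cutadapt, aligned them to mm10 (GRCm38) with HISAT2 and made counts with featureCounts of the Subread package. The submitters' processing notes give cutadapt 1.9.1 and HISAT2 2.0.4. Strand and multimapping settings are not given in the sources used here, so counts of overlapping genes are uncertain.

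Samples were grouped by their titles. Genes were filtered by filterByExpr (minimum count 10), scaled by TMM and compared by limma-voom, the package that the study's methods name, with group as the only term (limma 3.58.1, edgeR 4.0.16, R 4.3.3). p-values were two-sided and adjusted by the Benjamini-Hochberg method over 10911 genes, with a threshold of 0.05. Ratios and levels relative to S phase genes, as log2 CPM with a prior count of 2, were compared by exact permutation tests. Gene symbols were looked up by Ensembl identifier, 115 genes stayed unnamed, and 1 listed symbol had no row.

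The 6 members, 11 pathway lists and 7 marker lists were chosen with earlier results of these data known. Genes named are the members, Rrm2b, Tk1, Samhd1, Pcna and Dhodh, up to 4 genes past the threshold in each pathway list by smallest p, and the 2 genes most like each member. Some genes that this rule names, and 1 of the 6 pair ratios, are not reported here. E2f1, Glrx, Cda, Nme2 and the genes of the marker lists are named outside this rule, after their values were seen. On simulated counts with 199 changed genes among 10782 tested (log2 change 1), limma-voom recovered 73.37%, and 3.311% of its calls were false. Smaller changes, such as those of Rrm1, Rrm2, Tyms, Dut and Dtymk, were not simulated, so this recovery does not apply to them. There were 20 alternatives, 1 of them chosen after seeing the data. No pair of replicates agreed within sampling noise. Promoter sequences are from RefSeq (GRCm38.p6), and gene coordinates from the count table, on GRCm38.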

Additional observations from a re-analysis of the deposited data

Results flagged for a closer look

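By Dixon's criterion for 4 samples, 6 of 108 combinations of a measure and a group held a sample far from the other 3, where chance gives about 5.4. Tyms was at 7.30 log2 CPM in Vehicle sample 4, against 7.003 to 7.05 in the other Vehicle samples. Nme1 (8.20 against 7.93 to 7.97) and Aurka (6.59 against 5.90 to 5.96) were also highest in Vehicle sample 4. Dctd was at −0.70 log2 CPM in AG636 sample 1, against 1.31 to 1.52 in the other AG636 samples, which rests on 2 counts. Tfdp1 was at 6.28 log2 CPM in AG636 sample 2, against 6.38 to 6.40. Dtymk relative to the S phase genes was −0.049 log2 units in AG636 sample 4, against 0.31 to 0.38 in the others.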

How the results depend on the processing

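The log2 fold changes of all 6 enzymes stayed below 0 in every alternative run, and Tyms was called in all 20. Of the 6 enzymes, 2 were called in the main comparison, 4 by DESeq2, 1 with library size alone and 1 without Vehicle sample 4 and AG636 sample 3, a fit chosen after seeing the data. Calls over all genes tested were 1523 of 10911 in the main comparison, 1892 of 11604 by DESeq2 and 1489 of 10911 with library size alone. Leaving out 1 sample at a time gave 1 to 3 enzymes, 688 to 1706 genes in all (main 1523) and 19 to 48 genes of the pathway lists (main 40). The lowest of these counts came without Vehicle sample 3, and genes in all numbered 798 and 918 without Vehicle samples 1 and 2 and 1010 without Vehicle sample 4, while pathway genes were 23 without Vehicle sample 1 or AG636 sample 1. The cause was not tested. Library size alone gave 918 genes higher and 571 lower, 38.3% lower against 60.8% (597 higher and 926 lower), and moved the median of all genes to 0.06. Same-numbered samples did not deviate together (correlations −0.14, 0.01, 0.20 and 0.14), and a fit with the replicate number as a block called 1446 genes and 2 enzymes. The filter of 10 counts in every sample removed Dctd. At 2 to 38 counts a sample, depth limits what can be said of Dctd.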
